A study of Homo sapiens with 6 samples.

Results

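The HOX genes were followed in A375 melanoma cells whose SOX10 gene had been targeted with CRISPR. Members were all protein-coding rows of the count table, by GENCODE release 29, whose symbol is HOXA, HOXB, HOXC or HOXD followed only by a number. This gave 39 genes out of 58721 rows, 19940 of them protein-coding. There were 11 genes in HOXA, 10 in HOXB, 9 in HOXC and 9 in HOXD. A375 is an established human melanoma line with a mutant BRAF gene, grown here in DMEM with fetal bovine serum. RNA sequencing was done on 3 SOX10 knockout libraries, made from A375 cells with a guide RNA against SOX10, and on 3 control libraries, made from A375 cells with a guide RNA against mCherry, a gene that the human genome lacks, and labelled WT. The labels used here do not say if clones or mixed populations were sequenced, nor how long after targeting. They also do not say that replicates were grown separately, so each p-value measures the spread between libraries, possibly only technical.

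HOX genes encode homeodomain transcription factors that give cells their position along the head-to-tail axis of the embryo. Within a cluster the genes share a strand, and their order along the chromosome follows the order in which they are used along the body: genes with low numbers act in the hindbrain and neck, and genes with high numbers act in the lumbar region, the tail, the distal limb and the urogenital tract. Genes with the same number in different clusters are paralogs, copies of an ancestral gene. HOX proteins bind DNA together with TALE homeodomain partners of the PBX and MEIS families, and Polycomb and MLL complexes keep the clusters silent or active. Adult cells, melanocytes and melanomas among them, often keep a HOX pattern that reflects the site they came from.

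Total counts were between 70075002 and 78148565 per library, so that 3 counts, taken as the floor, stood at 0.0383 to 0.0417 CPM (counts scaled to library size by the TMM factors, then expressed as CPM). Floors cover counting error only. SOX10, the targeted gene, had 47.2, 47.8 and 41.5 CPM in the knockout libraries, against 241, 237 and 223 CPM in the control libraries. The exact two-sided permutation p of its log2 CPM was 0.1, the smallest that 3 libraries against 3 allow, and the knockout mean was 19.5% of the control mean. Of 9 tested melanocyte markers 2 were higher and 5 lower in the knockout. The list summed to 250 to 277 CPM in knockout and 243 to 284 CPM in control libraries. These sums hide changes of single markers in both directions. The 2 markers that rose are counted in the sums but not reported here by value, so the markers named below do not describe the whole list. Of the 5 that fell, S100B averaged 1.28 CPM in knockout and 32.9 CPM in control libraries. In the same order DCT averaged 0.0657 and 1.62 CPM, MIA 0.308 and 2.99 CPM, S100A1 0.762 and 3.14 CPM, and CSPG4 123 and 164 CPM. The pigment genes TYR and PMEL were at or near 0. TYR had 0 counts in all knockout libraries and 1 count over the control libraries. PMEL stood at 0.370 CPM in knockout and 0.623 CPM in control libraries. Markers of other cell types also differed; over all tested genes 28.0% were called, 14.0% higher and 14.0% lower. Of 12 fibroblast markers 8 were higher and 2 lower in the knockout, with a summed level of 47.1 to 48.6 CPM in knockout and 36.1 to 38.5 CPM in control libraries. Of 5 tested keratinocyte and epithelial markers 4 were higher and 1 lower (summed level 231 to 244 CPM in knockout, 173 to 181 CPM in control libraries). KRT18 made up most of that sum, with 216 CPM in knockout and 155 CPM in control libraries. KRT14, the 1 that fell, averaged 0.249 CPM in knockout and 7.16 CPM in control libraries. Of 4 tested endothelial markers 2 were higher and 1 lower (summed level 3.40 to 4.45 CPM in knockout, 6.81 to 8.85 CPM in control libraries). KDR, the 1 that fell, made up most of the control sum, with 0.175 CPM in knockout and 6.32 CPM in control libraries. Of 5 leukocyte markers only 1 had enough counts to be tested, and it did not pass. The leukocyte list summed to less than 0.5 CPM in each library. Within the fibroblast, keratinocyte and endothelial lists no marker had 0 counts over a group. In the leukocyte list CD68 had 0 counts over the control libraries and CD3E 0 counts over the knockout libraries. Only 14.2% of the exon bases of CD68 are free of other genes' exons. Reads on shared exon bases seem to be missing from the counts, so the counts of CD68 do not show that it was absent. The part of these markers in the HOX results was not tested. In bulk RNA, fewer cells of a type and less RNA per cell cannot be told apart.

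In A375 cells the HOX genes were unevenly used. A mean of at least 1 CPM in either group was reached by 29 of the 39 genes, 8 in HOXA, 9 in HOXB, 8 in HOXC and 4 in HOXD. Per kilobase of annotated exon, HOXB7, which is known to activate the FGF2 gene in melanoma cells, had the highest level, 17.97 CPM per kilobase in knockout and 19.4 CPM per kilobase in control libraries. First place depended on the length used: per kilobase of exon free of other genes' exons, HOXC10 led in the knockout (18.6, against 17.97 for HOXB7) and HOXB7 in the control, and per kilobase of the longest transcript, HOXC10 led in the knockout (20.2, against 20.03 for HOXB7) and HOXB2 in the control (24.8, against 21.6 for HOXB7). On the length of all annotated exons, HOXC10, a gene of the lumbar and hindlimb level, came next in the knockout, with 16.8 CPM per kilobase against 15.9 in control libraries, and HOXB2, a hindbrain gene, came next in the control, with 10.03 CPM per kilobase in knockout and 16.6 in control libraries. HOXA5, a gene of the neck and lung, followed in both groups (9.38 CPM per kilobase in knockout, 7.75 in control libraries). The order did not follow position along the clusters: among genes with at least 5 CPM per kilobase in control libraries stood HOXB2 at one end and HOXC13 and HOXD13, genes of hair follicles and of the digits, at the other. HOXB1, a hindbrain gene, was the only member with 0 counts in every library.

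**Figure D1:**
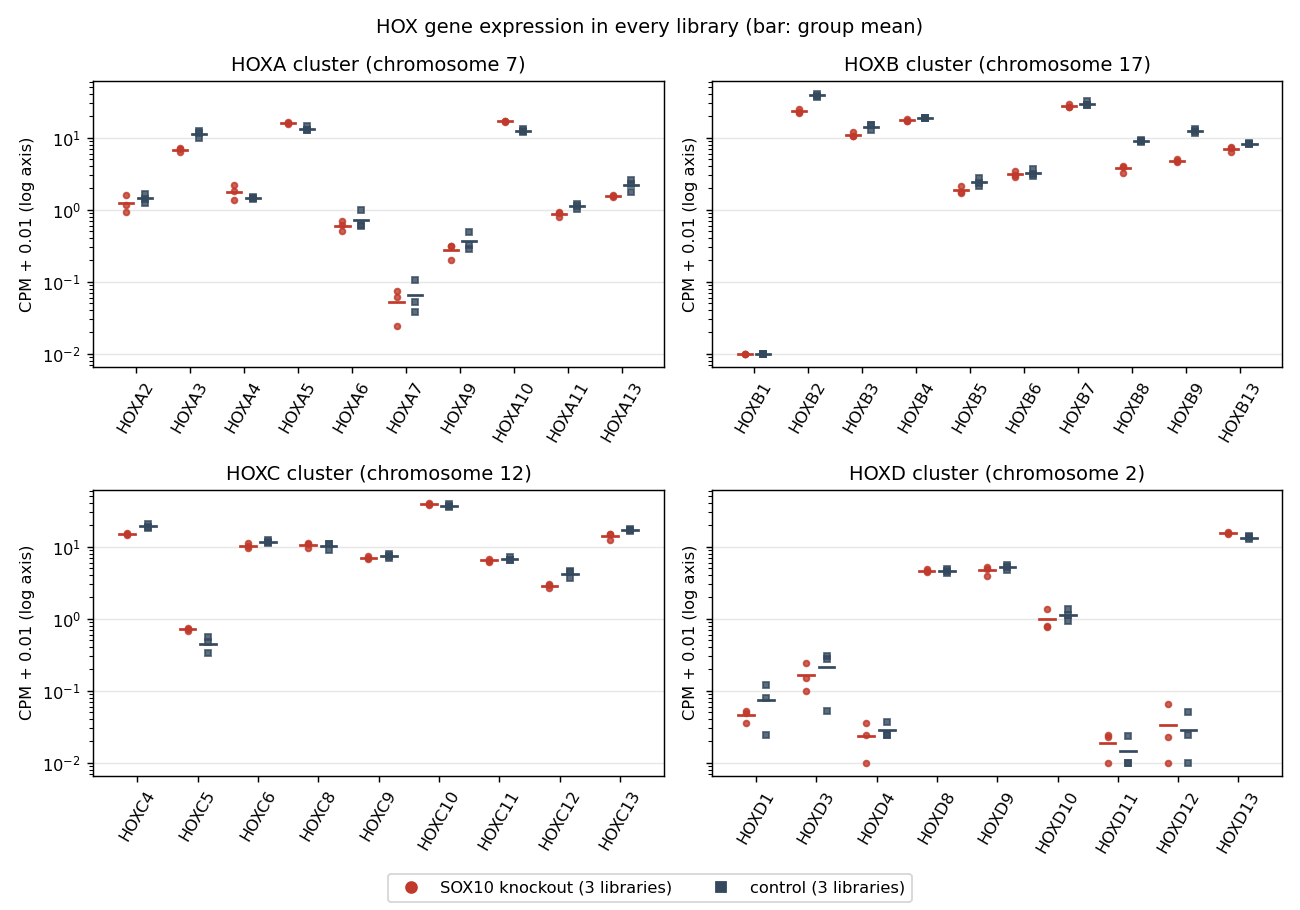
Expression of HOX genes in each library, in CPM plus 0.01 on a logarithmic axis, by cluster and in order of paralog group; circles are the 3 SOX10 knockout libraries, squares the 3 control libraries and bars the group means. The knockout libraries lie below the control libraries for HOXB2, HOXB8, HOXB9 and HOXA3 and above them for HOXA10, while HOXB1 is at 0 in all.

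The remaining low genes need care, since the counting affects them. In the table, 710 genes whose exons are wholly covered by exons of genes on the opposite strand had 0 counts in every library, 264 of them at least 500 bases long, the pattern left by counting without strand and dropping reads on exons of more than 1 gene. Among the HOX genes, HOXD4 kept 19.5% of its exon bases free of other genes' exons, HOXD3 25.9%, HOXA7 37.5%, HOXC5 40.1% and HOXD1 41.9%, so that reads over most of their exon bases are missing from the counts; HOXA4 and HOXA6 kept 52.7% and 59.9%. Per kilobase of free bases, HOXD4 stood at 0.0460 CPM per kilobase in knockout and 0.0638 in control libraries, HOXA7 at 0.0475 and 0.0604, and HOXD1 at 0.0425 and 0.0770. HOXD11 (0 or 1 count per library) and HOXD12 (0 to 4 counts per library) had 78.6% and 100% of their bases free. Reads of an antisense RNA that fall on free exon bases of a HOX gene cannot be told apart from reads of that gene.

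Of the 39 genes, 33 passed the filter on low counts and entered the test; HOXA7, HOXB1, HOXD1, HOXD4, HOXD11 and HOXD12 did not. In edgeR's quasi-likelihood test with Benjamini-Hochberg adjustment over all genes, 10 of the 33 passed an adjusted p of 0.05 (30.3%). Of all 19263 tested genes 28.0% passed, and of the 13928 tested protein-coding genes, the class of all members, 33.0% passed. The share of HOX genes called was thus near the background. Of the 10, 3 were higher in the knockout (HOXA5 and HOXA10 among them) and 7 lower (HOXA3, HOXB2, HOXB3, HOXB8, HOXB9, HOXC4 and HOXC12); over all genes 14.0% were called higher and 14.0% lower. The median log2 fold change of the 33 genes was -0.22 and that of all tested genes -0.02; for the HOX genes it was -0.11 without knockout replicate 2, -0.12 without control replicate 1 and -0.14 over the 28 genes left by a filter of 1 CPM in 3 libraries. The libraries of the 2 groups did not overlap for 17 of the 33 genes, against 41.6% of all tested genes. By cluster, 4 of 10 tested genes passed in HOXA, 4 of 9 in HOXB, 2 of 9 in HOXC and 0 of 5 in HOXD (where 1 gene, HOXD13, had an unadjusted p below 0.05, and DESeq2 called this gene). By position, 4 of 6 tested genes of paralog groups 1 to 3 passed, 3 of 13 of groups 4 to 8 and 3 of 14 of groups 9 to 13.

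**Figure D2:**
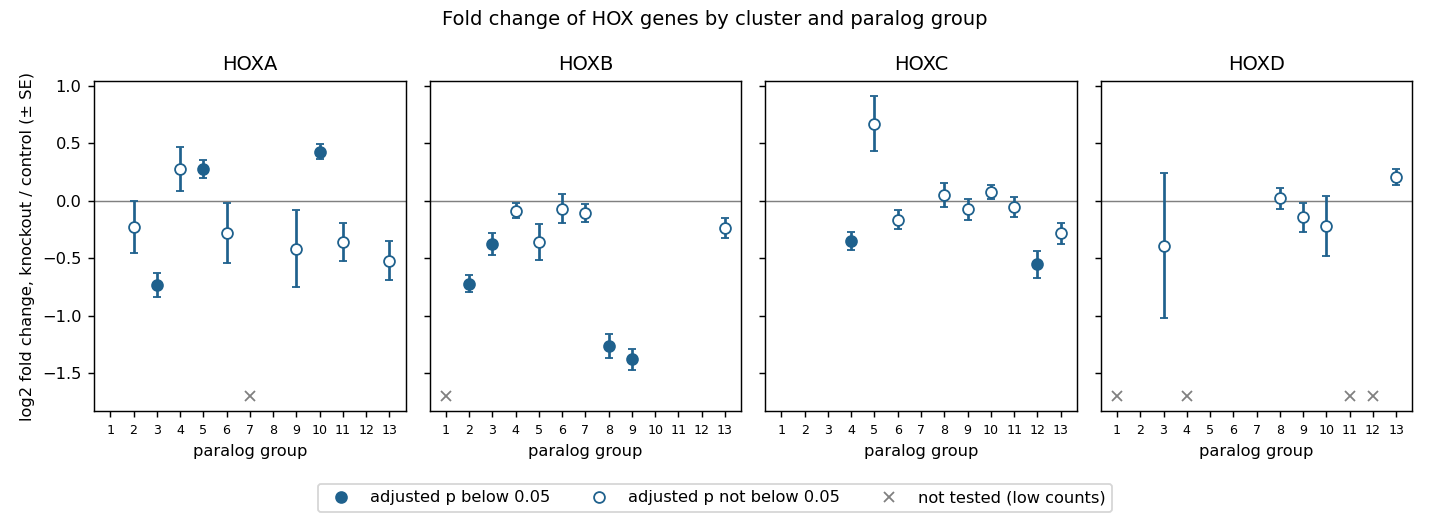
The log2 fold change of knockout over control (points, with the standard error as bars) for tested HOX genes, by cluster and by paralog group; filled points have an adjusted p below 0.05 and crosses mark the 6 genes that were not tested. HOXB8 and HOXB9 stand at -1.26 and -1.38, the called genes of HOXA lie on both sides of 0, and no HOXD gene is filled.

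HOXB (GRCh38 chromosome 17, 48528526 to 48729178, minus strand) held the largest differences among the HOX genes, and all of its tested genes had a fold change below 0. HOXB9, a gene of the trunk that shapes the ribs in mice, had 5.02, 4.69 and 4.58 CPM in the knockout libraries, against 13.4, 12.3 and 11.5 CPM in the control libraries. The groups were far apart: the highest knockout library lay below every control library. HOXB9 fell 2.61-fold (log2 change -1.38 with an SE of 0.09, adjusted p = 7.56e-06 in edgeR). Its neighbour HOXB8, known for holding myeloid progenitors in an immature state when overexpressed, had 3.96, 4.04 and 3.28 CPM in the knockout libraries, against 9.24, 8.71 and 9.11 CPM in the control libraries. Again no library of the groups overlapped, and HOXB8 fell 2.40-fold (log2 change -1.26 with an SE of 0.10, adjusted p = 2.93e-05 in edgeR). All exon bases of HOXB8 and HOXB9 were free of other genes' exons.

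The next gene along, HOXB7, did not pass the test. It had 26.4, 26.8 and 29.2 CPM in the knockout libraries, against 28.5, 28.2 and 32.3 CPM in the control libraries, with overlapping groups (log2 change -0.11 with an SE of 0.08, adjusted p = 0.348 in edgeR). Within a library, the log2 ratio of HOXB9 to HOXB7 was -2.40, -2.51 and -2.68 in the knockout, against -1.09, -1.20 and -1.49 in the control, a difference of -1.27. The log2 ratio of HOXB8 to HOXB7 averaged -2.87 ± 0.25 in the knockout and -1.72 ± 0.10 in the control (SD, n = 3 libraries each; exact permutation p = 0.1). HOXB4, HOXB5 and HOXB6, genes of the neck and thorax, did not pass the test, with log2 fold changes of -0.09, -0.36 and -0.07. HOXB4 had 18.5, 17.2 and 17.2 CPM in the knockout libraries, against 18.96, 18.7 and 18.6 CPM in the control libraries. HOXB5 had 2.15, 1.74 and 1.70 CPM in the knockout libraries, against 2.77, 2.31 and 2.11 CPM in the control libraries. The knockout libraries of HOXB4 lay below its control libraries by a small margin, and those of HOXB5 overlapped with the control. HOXB6 had 3.43, 2.87 and 2.98 CPM in the knockout libraries, against 3.63, 2.95 and 3.18 CPM in the control libraries, with overlap.

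At the hindbrain end of the cluster HOXB2 and HOXB3 fell. HOXB2, which patterns the facial motor neurons of the hindbrain in mice, had 25.2, 22.8 and 22.3 CPM in the knockout libraries, against 40.5, 38.2 and 37.3 CPM in the control libraries. It was the most abundant HOX gene by CPM in the control and fell 1.65-fold without overlap (log2 change -0.72 with an SE of 0.07, adjusted p = 1.13e-04 in edgeR). HOXB3 had 11.9, 10.5 and 10.6 CPM in the knockout libraries, against 15.3, 14.9 and 12.6 CPM in the control libraries. The groups did not overlap, and HOXB3 fell 1.30-fold (log2 change -0.37 with an SE of 0.10, adjusted p = 0.0197 in edgeR). The call of HOXB3 was lost with scaling by total counts alone and without knockout replicate 2, knockout replicate 3, control replicate 1 or control replicate 2, with an adjusted p of up to 0.0989. HOXB13, which lies apart at the far end of the cluster and is best known from the prostate, had 7.34, 7.20 and 6.29 CPM in the knockout libraries, against 8.16, 8.35 and 8.08 CPM in the control libraries; the groups were apart, but it did not pass (log2 fold change -0.24, edgeR adjusted p = 0.0746).

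HOXA (chromosome 7, 27092993 to 27200106, minus strand) was the cluster with called genes in both directions. HOXA2, a gene of the hindbrain, had 1.61, 1.14 and 0.918 CPM in the knockout libraries, against 1.67, 1.39 and 1.23 CPM in the control libraries, with overlapping groups (edgeR adjusted p = 0.521). HOXA3, which is needed for the thymus and parathyroid glands in mice, fell: it had 7.29, 6.86 and 6.29 CPM in the knockout libraries, against 12.5, 11.6 and 9.90 CPM in the control libraries. The fall was 1.66-fold, without overlap (log2 change -0.73 with an SE of 0.11, adjusted p = 0.00103 in edgeR).

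HOXA5 and HOXA10 rose. HOXA10, a gene of the lumbar level and the uterus, had 16.96, 16.96 and 16.6 CPM in the knockout libraries, against 12.3, 12.2 and 13.05 CPM in the control libraries. The knockout libraries were close together and above the control, and HOXA10 rose 1.34-fold (log2 change 0.43 with an SE of 0.07, adjusted p = 0.00141 in edgeR). HOXA5 had 15.9, 16.7 and 15.4 CPM in the knockout libraries, against 14.4, 12.6 and 12.7 CPM in the control libraries. It rose 1.21-fold without overlap (log2 change 0.28 with an SE of 0.08, adjusted p = 0.0307 in edgeR), a call that was lost without knockout replicate 1, knockout replicate 2, control replicate 2 or control replicate 3 (adjusted p up to 0.137). HOXA13, a gene of the distal limb and the genital tract, had 1.60, 1.47 and 1.52 CPM in the knockout libraries, against 2.24, 2.62 and 1.73 CPM in the control libraries. Its log2 fold change of -0.52 was just outside the threshold (edgeR adjusted p = 0.0510). HOXA13 was past it in DESeq2, without control replicate 3 and with the replicate number as a block (edgeR adjusted p = 0.0068). HOXA4, a gene of the neck level, had 2.20, 1.79 and 1.34 CPM in the knockout libraries, against 1.46, 1.42 and 1.51 CPM in the control libraries, with overlap and a log2 fold change of 0.28. HOXA11, a gene of the forearm and kidney, had 0.778, 0.919 and 0.880 CPM in the knockout libraries, against 1.11, 1.20 and 0.998 CPM in the control libraries, apart but not past the threshold, with a log2 fold change of -0.36. HOXA6 and HOXA9 averaged 0.592 and 0.268 CPM in knockout libraries and 0.721 and 0.358 CPM in control libraries, and did not pass.

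Start regions were available for 20 of the 39 genes in 27 windows of 300 bases, 250 before to 50 after an annotated start, taken from RefSeq on GRCh38.p14. Among the called genes these were HOXA3, HOXA10 and HOXC4. The windows at the outermost starts are shown because 1 holds a match to a SOX motif, and the other 2 resemble each other. In the HOXA10 window, on the minus strand at chr7:27179812-27180111, capitals mark the match to ACAAAG, a core of the sites that SOX proteins bind:
HOXA10: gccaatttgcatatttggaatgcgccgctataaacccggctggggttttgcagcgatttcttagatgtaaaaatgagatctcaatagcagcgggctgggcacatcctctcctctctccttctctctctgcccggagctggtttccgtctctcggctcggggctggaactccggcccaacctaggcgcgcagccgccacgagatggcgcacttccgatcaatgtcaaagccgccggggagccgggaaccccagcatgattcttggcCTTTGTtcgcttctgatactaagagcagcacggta
In the HOXA3 window, on the minus strand at chr7:27152534-27152833, and the HOXC4 window, on the plus strand at chr12:54016638-54016937, capitals mark words of at least 9 bases that the windows share:
HOXA3: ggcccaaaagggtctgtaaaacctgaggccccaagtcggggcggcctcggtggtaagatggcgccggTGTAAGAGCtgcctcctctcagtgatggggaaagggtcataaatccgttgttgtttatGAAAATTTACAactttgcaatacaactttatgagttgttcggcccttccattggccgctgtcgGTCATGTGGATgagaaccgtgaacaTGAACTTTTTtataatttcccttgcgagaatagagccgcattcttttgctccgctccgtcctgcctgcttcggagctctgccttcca
HOXC4: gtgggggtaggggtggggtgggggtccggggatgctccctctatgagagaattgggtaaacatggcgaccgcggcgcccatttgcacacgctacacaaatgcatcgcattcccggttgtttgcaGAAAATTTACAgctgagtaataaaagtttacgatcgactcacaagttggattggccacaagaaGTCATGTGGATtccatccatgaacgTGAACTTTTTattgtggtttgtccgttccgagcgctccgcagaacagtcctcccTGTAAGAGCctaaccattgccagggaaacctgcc
The HOXA3 and HOXC4 windows share 4 such words, of 11, 11, 10 and 9 bases. GAAAATTTACA, GTCATGTGGAT and TGAACTTTTT stand in the same order and at nearly the same places, from bases 126, 189 and 214 of the HOXA3 window and from bases 125, 188 and 213 of the HOXC4 window. On either strand GAAAATTTACA occurs in 0.0313% of all 35116 windows of the RefSeq table, GTCATGTGGAT in 0.0228% and TGAACTTTTT in 0.0968%. The remaining word, TGTAAGAGC, is the most common, in 0.162% of windows, and stands out of order, from base 68 of the HOXA3 window and base 267 of the HOXC4 window. Among the HOX windows these words were found in those of HOXA3, HOXC4 and HOXC5, and the last 2 genes share their start window. HOXC4 fell, while HOXC5 had a log2 fold change of 0.67 and did not pass the test. HOXA3 has other start windows too, and which start A375 cells use was not tested.

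Letters of 5 motifs were searched on both strands of the 27 HOX windows: ACAAAG and ACAATG for SOX proteins, TGATNNAT for HOX and PBX together, TAATTA for homeodomains and AGGTCA for retinoid receptors. Of the HOXB genes only HOXB1 had a window, and the window shared by HOXC4 and HOXC5 was counted for each of them. Matches did not overlap in the 3 windows shown. ACAAAG stood in 6 of the 27 windows (22.2%), against 16.1% of all windows, ACAATG in 0 of 27 against 10.8%, TGATNNAT in 3 (11.1%) against 7.40%, TAATTA in 2 (7.41%) against 4.84% and AGGTCA in 0 against 13.8%. Of the genes called, HOXA10 had ACAAAG in 1 of its 2 windows and HOXA3 in 1 of its 7, and the HOXC4 window held none of the 5. A match describes letters and not a bound site.

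HOXC (chromosome 12, 53938765 to 54056030, plus strand) held 2 called genes, both lower. HOXC4, the gene at the neck end, had 14.4, 15.6 and 15.2 CPM in the knockout libraries, against 18.7, 18.2 and 20.7 CPM in the control libraries. It fell 1.27-fold without overlap (log2 change -0.35 with an SE of 0.08, adjusted p = 0.00900 in edgeR). HOXC12, near the tail end, had 3.00, 2.90 and 2.68 CPM in the knockout libraries, against 4.38, 4.53 and 3.69 CPM in the control libraries, and fell 1.47-fold (log2 change -0.55 with an SE of 0.12, adjusted p = 0.00751 in edgeR). HOXC13 beside it, which drives hair keratin genes, had 15.2, 14.8 and 12.2 CPM in the knockout libraries, against 17.4, 17.3 and 16.7 CPM in the control libraries. The groups were apart, but HOXC13 missed the threshold (log2 fold change -0.29, edgeR adjusted p = 0.0510). It was past the threshold in DESeq2, in limma-voom, without knockout replicate 1 and with the replicate number as a block (edgeR adjusted p = 2.22e-04).

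Between these ends none of HOXC5 to HOXC11 passed. HOXC10, the most abundant HOX gene by CPM in the knockout, had 38.1, 40.1 and 39.1 CPM in the knockout libraries, against 39.3, 35.9 and 36.2 CPM in the control libraries, with overlap (log2 change 0.07 with an SE of 0.06, adjusted p = 0.448 in edgeR). HOXC8, known from forelimb motor neurons in mice, had 10.8, 11.2 and 9.53 CPM in the knockout libraries, against 10.8, 10.9 and 8.94 CPM in the control libraries. HOXC9, a gene of the thorax, had 6.85, 7.48 and 6.78 CPM in the knockout libraries, against 6.87, 7.51 and 7.89 CPM in the control libraries. The libraries of both genes were mixed between the groups. HOXC11 had 6.10, 6.83 and 6.38 CPM in the knockout libraries, against 7.15, 6.43 and 6.50 CPM in the control libraries, again with overlap. HOXC6 had 10.3, 11.3 and 9.61 CPM in the knockout libraries, against 12.3, 11.2 and 11.5 CPM in the control libraries, overlapping by a narrow margin (edgeR adjusted p = 0.194). HOXC5 had 0.709, 0.664 and 0.727 CPM in the knockout libraries, against 0.459, 0.539 and 0.319 CPM in the control libraries. Its groups did not overlap, but it did not pass (log2 fold change 0.67, edgeR adjusted p = 0.0725); 40.1% of its exon bases are free of other genes' exons.

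HOXD (chromosome 2, 176092891 to 176190907, plus strand) was largely silent outside HOXD8, HOXD9, HOXD10 and HOXD13, and none of its 5 tested genes passed. HOXD13, which shapes the digits, had 14.9, 15.9 and 15.4 CPM in the knockout libraries, against 12.6, 13.5 and 13.96 CPM in the control libraries. The knockout libraries lay above the control libraries by a small margin (log2 change 0.20 with an SE of 0.07, adjusted p = 0.0670 in edgeR). It passed in DESeq2, with scaling by total counts alone and under the filter of 1 CPM in 3 libraries. With the replicate number as a block HOXD13 also passed (edgeR adjusted p = 0.0042). HOXD8 had 4.64, 4.85 and 4.46 CPM in the knockout libraries, against 4.64, 4.30 and 4.84 CPM in the control libraries. HOXD9 had 5.17, 3.96 and 4.90 CPM in the knockout libraries, against 5.60, 5.22 and 4.70 CPM in the control libraries. Both overlapped between the groups. HOXD10, which patterns hindlimb motor neurons in mice, had 0.750, 0.792 and 1.35 CPM in the knockout libraries, against 1.33, 1.12 and 0.929 CPM in the control libraries, with overlap. HOXD3, with 25.9% of its exon bases free, averaged 0.153 CPM in knockout and 0.201 CPM in control libraries.

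Summed over the genes of a cluster, HOXB gave 103.9, 97.8 and 98.1 CPM in the knockout libraries, against 140.4, 134.8 and 134.7 CPM in the control libraries. HOXC averaged 106 ± 4.37 CPM in knockout and 114 ± 2.82 CPM in control libraries, HOXA 54.3 ± 2.64 and 49.6 ± 2.58 CPM, and HOXD 25.9 ± 0.369 and 24.6 ± 0.200 CPM (SD, n = 3 each). HOXB therefore held 33.8% to 35.6% of all HOX reads, on the CPM scale, in the knockout and 41.97% to 42.2% in the control, and HOXC was the largest cluster in the knockout with 36.2% to 38.3%, against 35.0% to 35.2% in the control. All HOX genes together summed to 286 ± 7.22 CPM in knockout and 325 ± 8.37 CPM in control libraries (SD, n = 3 each). These sums are descriptions and were not tested.

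**Figure D3:**
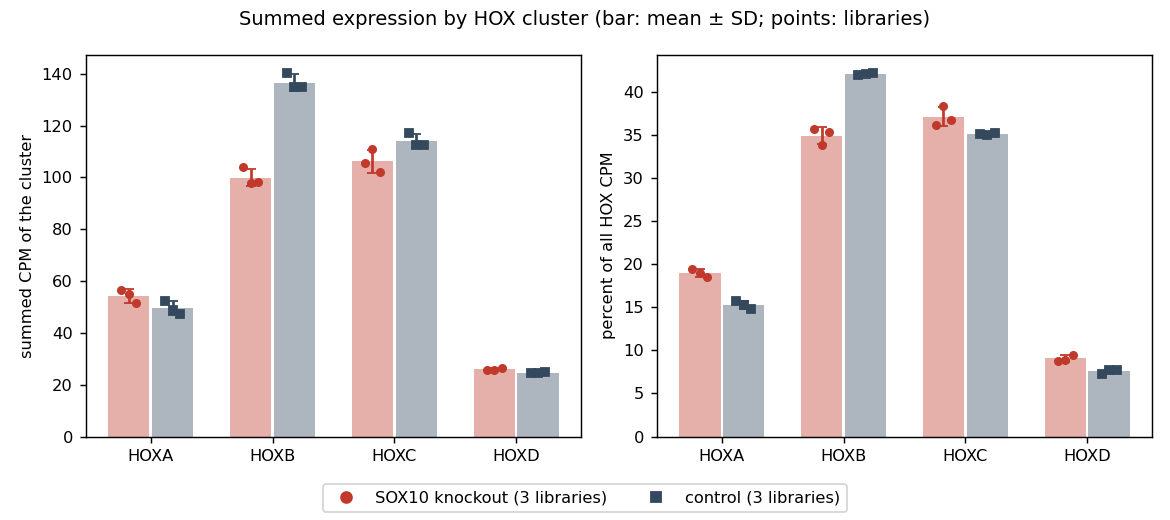
Left, summed CPM of each HOX cluster; right, its percentage of all HOX CPM; bars are means with the SD over 3 libraries, points are libraries, with SOX10 knockout to the left of control. The HOXB sum is 99.9 CPM in the knockout and 137 CPM in the control, the widest gap among the 4 clusters.

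In several paralog groups only some of the tested members were called. In paralog group 9, HOXB9 fell while HOXC9 and HOXD9 did not pass the test; the log2 ratio of HOXB9 to HOXC9 averaged -0.56 ± 0.11 in the knockout and 0.74 ± 0.21 in the control (SD, n = 3 libraries each): HOXC9 was the more counted gene of the pair in the knockout and HOXB9 in the control. In group 8, the log2 ratio of HOXB8 to HOXC8 averaged -1.49 ± 0.05 in the knockout and -0.17 ± 0.18 in the control. In group 10, the ratio of HOXA10 to HOXC10 averaged -1.22 ± 0.04 in the knockout and -1.57 ± 0.10 in the control. For HOXB2 against HOXB4 it was 0.41 ± 0.04 in the knockout and 1.04 ± 0.05 in the control. In all 6 pairs compared, which were chosen after the values were seen, the libraries of the groups did not overlap, and the exact two-sided permutation p was 0.1 for each (0.1 adjusted over the 6), the smallest that this design allows. Summed over a group, paralog group 9 stood at 16.7 ± 0.518 CPM in knockout and 25.4 ± 0.796 CPM in control libraries, group 2 at 24.6 ± 1.94 and 40.1 ± 1.89 CPM, and group 3, where both HOXA3 and HOXB3 fell, at 17.97 ± 1.18 and 25.8 ± 2.67 CPM (SD, n = 3 each). Group 13 stood at 37.9 ± 2.24 CPM in knockout and 40.9 ± 0.720 CPM in control libraries, with none of its 4 genes past the threshold.

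The clusters also hold non-coding RNA genes. Of 56 rows that are not protein-coding, some of them pseudogenes, 16 were tested, and 1 rose and 1 fell (12.5%, against 28.0% of all tested genes). HOTAIRM1, a long non-coding RNA of the HOXA cluster known from myeloid cells (chromosome 7, 27095647 to 27100265), had 1.38, 1.37 and 1.64 CPM in the knockout libraries, against 0.445, 0.728 and 0.874 CPM in the control libraries. It rose 2.14-fold without overlap (log2 change 1.10 with an SE of 0.24, adjusted p = 0.00961 in edgeR). HOTAIRM1 kept 55.1% of its exon bases free of other genes' exons, and had 32, 54 and 63 counts in the control libraries. Reads of an opposite-strand RNA that fall on those free bases cannot be told apart from its own. HAGLR, an RNA read against the HOXD genes from a start next to HOXD1 (chromosome 2, 176164051 to 176188958), had 4.72, 4.52 and 4.14 CPM in the knockout libraries, against 9.47, 8.27 and 7.56 CPM in the control libraries, and fell 1.89-fold (log2 change -0.92 with an SE of 0.11, adjusted p = 3.07e-04 in edgeR). None of the 5 tested HOXD genes passed. Of the HOXD genes whose span overlaps that of HAGLR, HOXD1 was not tested. HOXD3 averaged only 0.153 CPM in knockout and 0.201 CPM in control libraries, so these counts say little about a change next to HAGLR. HOTAIR, transcribed from HOXC, had 0.986, 1.06 and 0.829 CPM in the knockout libraries, against 1.22, 1.09 and 1.03 CPM in the control libraries, and did not pass (edgeR adjusted p = 0.412).

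Outside the clusters, 2 of 13 tested flanking genes passed (15.4%, against 28.0% of all and 33.0% of protein-coding tested genes), both on the low-coordinate side of HOXA. SKAP2, 97.8 kilobases from the cluster, an adaptor of SRC family kinase signalling, had 97.3, 102 and 108 CPM in the knockout libraries, against 53.1, 53.97 and 60.7 CPM in the control libraries. It rose 1.83-fold (log2 change 0.87 with an SE of 0.07, adjusted p = 4.32e-05 in edgeR). SNX10, the sorting nexin gene that lies beyond SKAP2, had 46.9, 52.1 and 60.3 CPM in the knockout libraries, against 68.3, 73.9 and 88.2 CPM in the control libraries, and fell 1.45-fold (log2 fold change -0.53, edgeR adjusted p = 0.0103). HIBADH, on the far side of HOXA, and the tested genes beside HOXB, HOXC and HOXD did not pass.

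**Figure D4:**
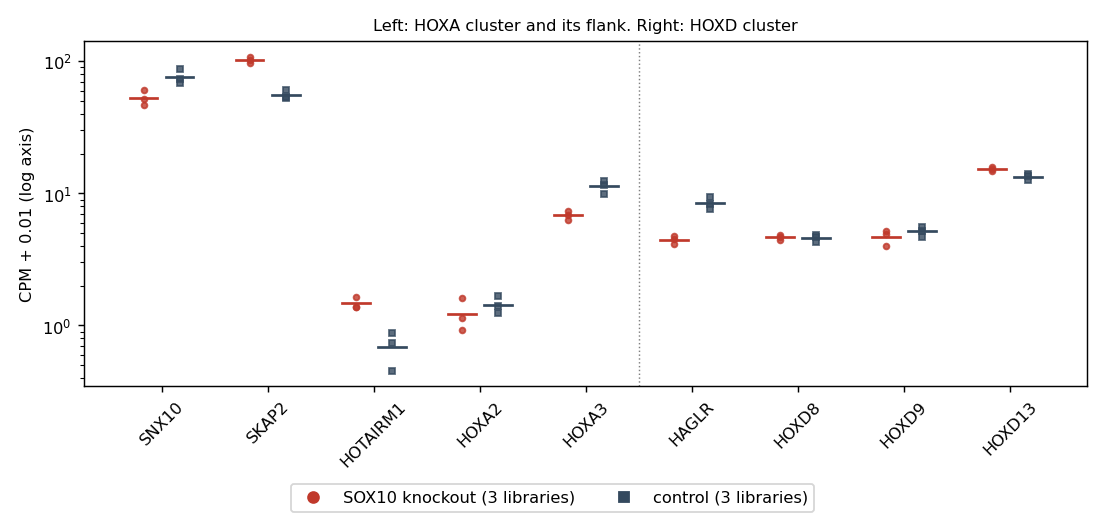
CPM plus 0.01, on a logarithmic axis, in each library. Left of the dotted line are SNX10, SKAP2, HOTAIRM1, HOXA2 and HOXA3 in chromosome order, and right of it HAGLR, HOXD8, HOXD9 and HOXD13. Circles are SOX10 knockout libraries, squares control libraries and bars group means. SKAP2 and HOTAIRM1 are higher in the knockout (log2 fold changes 0.87 and 1.10), SNX10 and HOXA3 are lower, and HAGLR is lower while HOXD8 and HOXD9 overlap.

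Of 50 tested partners and regulators of HOX genes and proteins, 1 rose and 23 fell. Over all tested genes 28.0% were called, 14.0% higher and 14.0% lower. All listed genes are protein-coding, and of the tested protein-coding genes 33.0% were called. The total of 24 partners and regulators was 14 without knockout replicate 2 and 15 without control replicate 2. Of 9 tested TALE partners 1 rose and 3 fell (44.4%, against 28.0% of all tested genes). PKNOX2, a TALE gene, had 0.153, 0.115 and 0.0765 CPM in the knockout libraries, against 6.03, 5.65 and 5.26 CPM in the control libraries, and fell 48.9-fold (log2 change -5.61 with an SE of 0.19, adjusted p = 2.50e-07 in edgeR). The other TALE genes that fell were PBX2 and MEIS1, with log2 fold changes of -0.36 and -0.54.

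Of 23 tested Polycomb genes, whose products compact and mark silent chromatin, 11 fell and 0 rose (47.8%). The share called was 28.0% of all tested genes and 33.0% of tested protein-coding genes. The median log2 fold change of the Polycomb genes was -0.18, against -0.02 for all tested genes. CBX2, a PRC1 subunit, had 11.2, 10.8 and 10.04 CPM in the knockout libraries, against 24.9, 27.3 and 23.03 CPM in the control libraries, and fell 2.35-fold (edgeR adjusted p = 1.12e-05). Without knockout replicate 2 the number of Polycomb genes past the threshold was 5, and without control replicate 2 it was 6. A further list held genes of MLL complexes, menin, the H3K27 demethylases and DOT1L. Of its 11 tested genes 6 fell and 0 rose (54.5%, against 28.0% of all and 33.0% of protein-coding tested genes). Among them ASH2L, a core subunit, averaged 64.3 ± 1.75 CPM in knockout and 86.1 ± 4.51 CPM in control libraries (edgeR adjusted p = 0.00117), and PSIP1, which tethers MLL to chromatin, 194 ± 9.28 and 248 ± 9.59 CPM (SD, n = 3 each; edgeR adjusted p = 0.00300). The 6 calls were 2 with scaling by total counts alone, 3 under the filter of 1 CPM in 3 libraries, and 2 without knockout replicate 2, knockout replicate 3, control replicate 1 or control replicate 2.

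Of 6 tested retinoid receptor genes, which act on HOX genes in the embryo, 3 fell and 0 rose (50%). Of all tested genes 28.0% were called and 14.0% called lower, and of tested protein-coding genes 33.0% were called. RARB had 0.792, 0.677 and 0.956 CPM in the knockout libraries, against 1.77, 1.97 and 1.93 CPM in the control libraries, and fell 2.33-fold (log2 fold change -1.22, edgeR adjusted p = 7.60e-04). RXRG fell to 0.250, 0.230 and 0.166 CPM in the knockout libraries, against 15.7, 15.3 and 17.1 CPM in the control libraries (log2 fold change -6.21, edgeR adjusted p = 4.40e-08), and RARG was the other gene that fell. Of 8 CDX, ParaHox and EVX genes, relatives of the HOX genes, only PDX1 had enough counts to be tested, and it averaged 0.257 ± 0.107 CPM in knockout and 0.324 ± 0.0857 CPM in control libraries (SD, n = 3 each; edgeR adjusted p = 0.559).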

How the data were processed

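RNA from 6 libraries was extracted on columns and prepared with a stranded mRNA kit, per the labels' protocols. Reads were handled with HISAT2 and HTSeq on build hg38, per the submitters' processing notes. The table that the authors deposited holds whole-number counts of reads for each gene, with no scaling. No source used here gives the strand setting, which was read from the counts. All 58721 row identifiers matched GENCODE release 29 (GRCh38), the source of gene types, coordinates and exon lengths.

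The test was the two-sided quasi-likelihood test of edgeR 4.0.16 (R 4.3.3; filterByExpr, 19263 genes; TMM; knockout against control, no covariates; Benjamini-Hochberg adjustment over all tested genes, threshold 0.05), with standard errors from the same fit. Levels of different genes were compared as CPM per kilobase of the union of exons. The script was tested on simulated counts. Alternatives were DESeq2 1.42.0, limma 3.58.1 with voom, other scalings and filters, the replicate number as a block, and leaving out each library. Plots were made with matplotlib 3.10.9.

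Members, lists and tests were chosen with earlier results of these data known. Values are given for HOX genes and, of other lists, members past the threshold with at least a 2-fold change, or else those 2 with the smallest p; of non-coding and flanking genes, those past the threshold and reaching 1 CPM on average. HOTAIR, PBX2, MEIS1, RARG, HIBADH and the cell type markers named fall outside this rule and were chosen after their values were seen. These markers are TYR, PMEL, S100B, DCT, MIA, S100A1, CSPG4, KRT18, KRT14, KDR, CD68 and CD3E. Results of some members and listed genes that the counts include are not reported here. The labels give no batch. All pairs of libraries within a group differed beyond counting noise, so each was kept as its own replicate.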

Additional observations from a re-analysis of the deposited data

How the results depend on the processing

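Under 12 alternatives (DESeq2, limma-voom, 2 other scalings, 2 other filters and leaving out each library), 367 of 391 fold changes of HOX genes kept their direction and their side of the threshold, 9 lost it, 8 gained it and 7 changed sign. Of the 10 HOX genes called, 8 were called in all 12, the exceptions being HOXA5 and HOXB3. The sign changes concerned 6 genes that did not pass: HOXA6 (0.0047), HOXB6 (0.023) and HOXC11 (0.0020) without control replicate 1, HOXC8 (-0.041) without control replicate 3, HOXD3 (4.6e-04) without control replicate 2, and HOXD8 (-0.0039 without knockout replicate 2, -0.029 without control replicate 2). Leaving out libraries gave log2 fold changes of -0.40 to 0.0047 for HOXA6, -0.14 to 0.023 for HOXB6, -0.092 to 0.0020 for HOXC11, -0.041 to 0.11 for HOXC8, -0.86 to 4.6e-04 for HOXD3 and -0.029 to 0.056 for HOXD8. The number of genes called lower ranged from 1794 (without knockout replicate 2) to 2958, and that of partners and regulators from 14 to 24; the cause was not tested.

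The replicate numbers are shared by the groups. Deviations of same-numbered libraries from their group means had correlations of 0.30, -0.0044 and 0.31. Between replicates 1 and 3 of different groups the correlations were -0.28 and -0.33. Deviations within a group of 3 sum to 0, so this check cannot decide if the numbers pair the samples. The main test left the numbers out, and a fit with them as a block was run beside it. Each library correlated best with its own number for replicates 1 and 3 but not for replicate 2. With the replicate block, 18 HOX genes passed (5 higher, 13 lower), among them all 10 called without it, and 9813 genes in all (4637 higher, 5176 lower). The HOX genes that passed only with the block, and not in the main test, were HOXA13, HOXB5, HOXB7, HOXB13, HOXC5, HOXC6, HOXC13 and HOXD13. Calls of these genes thus depended on how the replicate numbers were treated.

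Reads over shared exons and the lack of strand in the counts limit HOXD4, HOXD3, HOXA7, HOXC5 and HOXD1, and 3 libraries a group limit single-gene permutation tests to p = 0.1.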
